A study of Homo sapiens with 6 samples.

Results

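Interferon signalling genes were examined in HCT116 cells, an established human colorectal carcinoma line, with and without shikonin, a red naphthoquinone made by plants of the gromwell family. The set held 9 genes: the receptor chains IFNAR1 and IFNAR2, the kinases JAK1 and TYK2, and the transcription factors STAT2, STAT3, IRF1, IRF7 and IRF9. They were 9 of the 35106 genes in the count table, and all 9 were among the 13548 genes with enough counts to be tested. The genes were chosen by symbol, with their fold changes between the shikonin and control libraries already known. Their values in this comparison are therefore given as a description, without a p-value, and nothing is read from how many of them differed.

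Type I interferons bind a receptor made of IFNAR1 and IFNAR2, which carries the kinases TYK2 and JAK1 on its inner side. The activated kinases phosphorylate STAT2, which joins IRF9 in a complex named ISGF3 that switches on interferon-stimulated genes, STAT2, IRF9 and IRF7 among them. IRF7 is a master regulator of interferon genes, IRF1 acts largely downstream of interferon gamma, and STAT3 answers mainly to cytokines of the interleukin-6 family that signal through gp130. In colon epithelium the pathway serves antiviral defence and antigen presentation.

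The shikonin group had 3 libraries of wild-type HCT116 cells, labelled as exposed to 8 μM shikonin over 24 h, and the control group had 3 libraries labelled as having no treatment. The study's methods state a lower dose than the labels, so the dose is uncertain, and they dilute shikonin from a DMSO stock, whereas the labels do not say whether the controls received DMSO. The sources do not state that replicate libraries are separate cultures, and p-values cover only the spread seen among the libraries. The comparison asked how shikonin alters the transcriptome of colon cancer cells.

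The shikonin libraries held 18845690 to 21765806 counts and the control libraries 18874211 to 19781383. Levels are in CPM, which are counts scaled to a common library total after normalisation by the trimmed mean of M values (TMM). A gene is called where edgeR's quasi-likelihood test gave an adjusted p under 0.05 over all tested genes. Such calls covered 2964 genes, 21.9% of those tested, 11.1% being lower and 10.8% higher in the shikonin group. Leaving out control replicate 1 left 1637 calls, leaving out control replicate 2 left 1798, and leaving out shikonin replicate 2 left 1900. Of 9 colorectal epithelial markers, 7 were tested, and their summed level was 3994 to 4683 CPM in the shikonin group and 3992 to 4302 CPM in the control group, while LGALS4 and CEACAM5 had at most 3 counts in any library. Of the 7, KRT19 was called higher at a log2 fold change of 0.28 (edgeR's adjusted p = 0.0496), a call that 8 of 17 alternatives lost, and without shikonin replicate 3 the number called higher was 3. Of the 7, 3 had a log2 fold change below 0. Among these, CDH1 was at 255 to 281 CPM in the shikonin group and 293 to 303 CPM in the control group. Its groups did not overlap, but it was not called (log2 fold change -0.18, edgeR's adjusted p = 0.0937). The part of these markers in the results was not tested. The 9 immune markers summed to 2.09 to 2.88 CPM in the shikonin group and 1.21 to 1.97 CPM in the control group, without overlap. CD3E and MS4A1 were listed at 0. Most of the counts came from CD14, CSF1R and ITGAM, with at most 34, 17 and 17 counts in a library. CD14 was not called (log2 fold change 0.04, edgeR's adjusted p = 0.967). CSF1R and ITGAM were not tested. The groups overlapped for CSF1R, but not for ITGAM, at 0.385 to 0.815 CPM in the shikonin group and 0.0496 to 0.364 CPM in the control group. In bulk libraries, fewer cells expressing a gene and less of its mRNA per cell cannot be told apart.

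Across the 9 genes, 6 were called lower in the shikonin group (IFNAR1, IFNAR2, STAT2, STAT3, IRF7 and IRF9), none was called higher, and 3 were not called (JAK1, TYK2 and IRF1), beside 21.9% of all tested genes called in either direction and 11.1% called lower. In 7 genes every shikonin library lay below every control library, as in 20.3% of all tested genes, and in TYK2 and IRF1 the groups overlapped, as in 61.6%. The median log2 fold change, shikonin over control, was -0.37 over the 9 genes and -0.02 over all tested genes. Counts per library were between 377 for IRF7 and 5393 for the most abundant member, so none of the 9 rests on low counts.

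**Figure D1:**
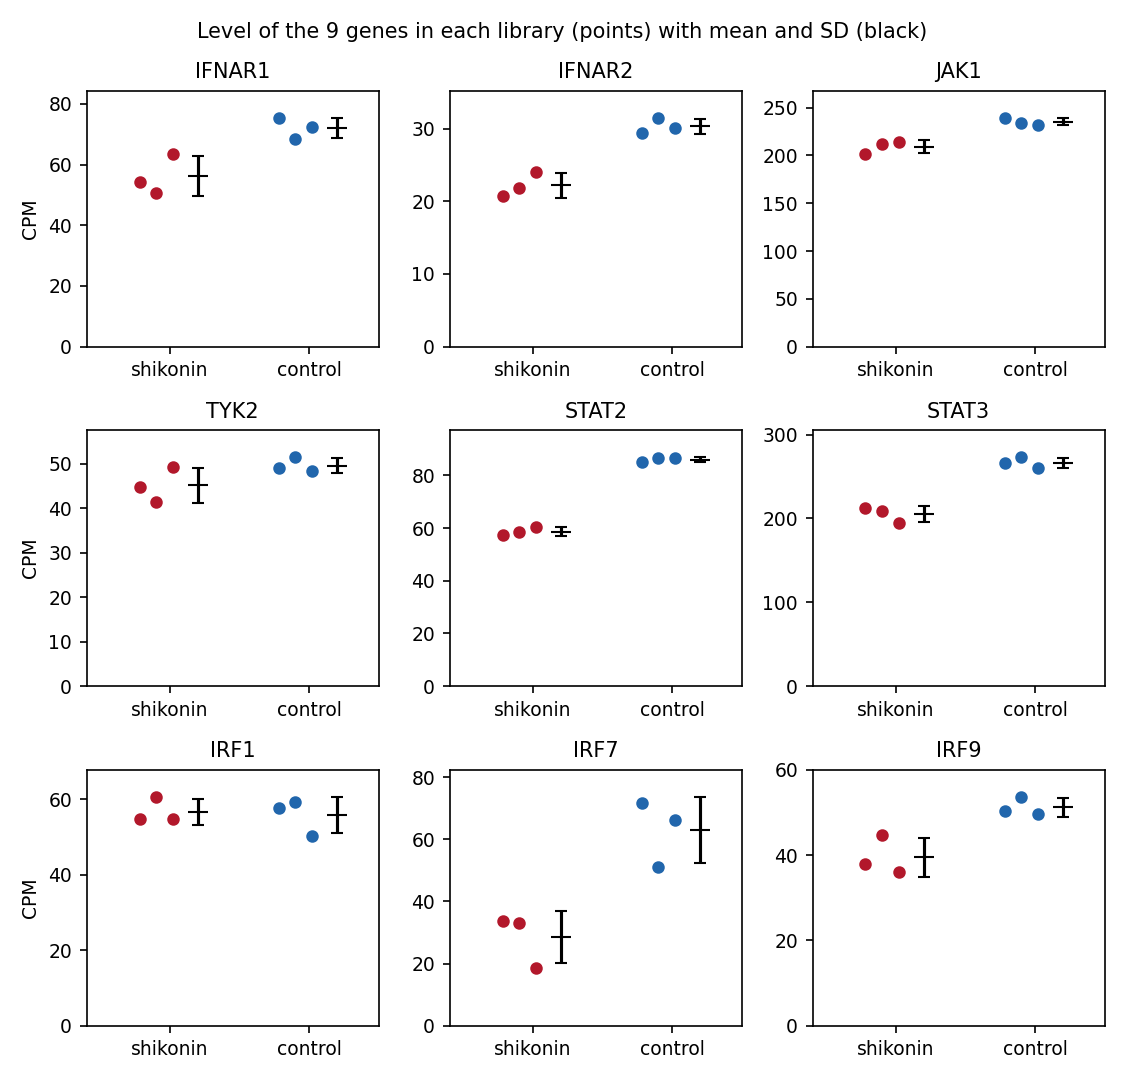
Level of the 9 genes in CPM (vertical axes, each starting at 0) in the 3 shikonin and 3 control libraries. Coloured points are libraries in the order of their numbers, and black marks are the mean and SD of a group (n = 3). In 7 panels all shikonin points lie below all control points, and in the panels of TYK2 and IRF1 the groups overlap.

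The genes for both receptor chains were lower in the shikonin group. IFNAR1, the chain bound by TYK2, lies on the plus strand of chromosome 21 at 33324387 to 33359864 (GRCh38). Its level was 54.4, 50.7 and 63.6 CPM in shikonin libraries 1, 2 and 3, against 75.2, 68.5 and 72.3 CPM in control libraries 1, 2 and 3. The groups did not overlap, and shikonin library 3 came closest to the control group. The means were 56.2 ± 6.62 CPM in the shikonin group and 72.0 ± 3.35 CPM in the control group (SD, n = 3 each), a log2 fold change of -0.36 with a standard error of 0.09. IFNAR1 was called with all libraries, but not without control replicate 1, at a log2 fold change of -0.32, nor without shikonin replicate 2, at -0.29.

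IFNAR2, the chain bound by JAK1, lies upstream on the same strand of chromosome 21, at 33205282 to 33265675. Its level was 20.7, 21.9 and 24.1 CPM in shikonin libraries 1 to 3, against 29.4, 31.5 and 30.1 CPM in control libraries 1 to 3. Every shikonin library lay below every control library, and the gap between the groups exceeded the range within either. The log2 fold change was -0.45 with a standard error of 0.10, that is, a fold of 0.733. The ratio of IFNAR1 to IFNAR2 counts was 2.53 ± 0.185 in the shikonin group and 2.38 ± 0.191 in the control group (SD, n = 3 each), and the ranges of this ratio overlapped, so no shift between the chains was seen beyond the spread.

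Both receptor genes belong to a row of cytokine receptor genes on chromosome 21. IL10RB, a chain shared by the receptors for interleukin-10 and interferon lambda, begins 692 bases after IFNAR2 and ends 12967 bases before IFNAR1, on the same strand. Its log2 fold change was -0.04 with a standard error of 0.10 (edgeR's adjusted p = 0.841). IFNGR2, a chain of the interferon gamma receptor, follows 43549 bases after IFNAR1, and its 3 shikonin libraries lay above the control libraries at a log2 fold change of 0.19 (edgeR's adjusted p = 0.101). The neighbours between and beside the IFNAR genes thus did not pass the test. IFNAR2 also overlaps the read-through gene IFNAR2-IL10RB, which had at most 16.4 counts in any library.

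The kinase genes had smaller log2 fold changes than the receptor genes, which was not tested. JAK1, on the minus strand of chromosome 1 at 64833223 to 65067754, was at 201, 212 and 214 CPM in shikonin libraries 1 to 3, against 239, 234 and 232 CPM in control libraries 1 to 3. The groups did not overlap, yet the gap between them was small. The log2 fold change was -0.17 with a standard error of 0.07, and JAK1 was not called. It was called without shikonin replicate 3, at -0.16, and with library totals as the only scaling, at -0.23. Part of JAK1 overlaps RAVER2 on the other strand, which had a log2 fold change of -0.19 (edgeR's adjusted p = 0.155). Whether counting used strand is not stated, so reads from the overlap cannot be told apart. Beyond the overlap, the neighbouring gene CACHD1 fell, with a log2 fold change of -0.44 (standard error 0.09, edgeR's adjusted p = 0.00348), and AK4 on the other side stood at 0.12 (edgeR's adjusted p = 0.378).

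TYK2, on the minus strand of chromosome 19 at 10350533 to 10380608, was at 44.8, 41.5 and 49.3 CPM in shikonin libraries 1 to 3, against 49.0, 51.4 and 48.3 CPM in control libraries 1 to 3. Shikonin library 3 lay within the control range, so the groups overlapped. The log2 fold change was -0.13 with a standard error of 0.08, and TYK2 was not called in any of the 17 alternative fits. The ratio of JAK1 to TYK2 was 4.65 ± 0.403 in the shikonin group and 4.74 ± 0.172 in the control group (SD, n = 3 each), a difference smaller than the spread. The flanking genes ICAM3, at 0.12, and CDC37, at 0.16, did not pass the test (edgeR's adjusted p = 0.590 and 0.0985).

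Among the transcription factors, STAT2 showed the narrowest spread within groups. STAT2, the STAT that binds IRF9 in ISGF3, lies on the minus strand of chromosome 12 at 56341597 to 56360203. Its level was 57.3, 58.3 and 60.4 CPM in shikonin libraries 1 to 3, against 85.0, 86.4 and 86.4 CPM in control libraries 1 to 3. All shikonin libraries were lower, with no overlap and a gap many times the range within either group. The means were 58.7 ± 1.57 CPM in the shikonin group and 86.0 ± 0.845 CPM in the control group (SD, n = 3 each), a log2 fold change of -0.55 with a standard error of 0.07. Its flanking genes IL23A, with 7 to 18 counts, and TIMELESS, at 0.01, did not pass the test (edgeR's adjusted p = 0.401 and 0.961).

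STAT3, the factor of interleukin-6 type cytokines, lies on the minus strand of chromosome 17 at 42313324 to 42388540. It was at 212, 209 and 195 CPM in shikonin libraries 1 to 3, against 266, 273 and 261 CPM in control libraries 1 to 3. Every shikonin library was lower and the groups did not overlap. The log2 fold change was -0.37 with a standard error of 0.07, smaller than that of STAT2, and the ratio of STAT3 to STAT2 was 3.23 to 3.71 in the shikonin group and 3.02 to 3.16 in the control group. STAT5B, the neighbouring STAT gene 24691 bases away on the same strand, stood at 0.00 (edgeR's adjusted p = 0.992), and CAVIN1 on the other side at -0.13 (edgeR's adjusted p = 0.332).

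IRF7 had the largest difference and the widest spread of the 9 genes. It lies on the minus strand of chromosome 11 at 612553 to 615983. Its level was 33.7, 33.0 and 18.7 CPM in shikonin libraries 1 to 3, against 71.6, 51.1 and 66.2 CPM in control libraries 1 to 3. The groups did not overlap, shikonin library 3 was lowest, and control library 2 was the lowest of its group. The means were 28.5 ± 8.45 CPM in the shikonin group and 63.0 ± 10.6 CPM in the control group (SD, n = 3 each), a log2 fold change of -1.15 with a standard error of 0.17. The coefficient of variation was 29.7% in the shikonin group and 16.9% in the control group. Without shikonin replicate 3 the log2 fold change was -0.89, and without shikonin replicate 1 it was -1.29. PHRF1, which ends 331 bases from IRF7 on the other strand, stood at 0.16 (edgeR's adjusted p = 0.398), and DEAF1 at 0.23 (edgeR's adjusted p = 0.0746).

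IRF9, the DNA-binding subunit of ISGF3, lies on the plus strand of chromosome 14 at 24161234 to 24168043. It was at 37.8, 44.8 and 36.0 CPM in shikonin libraries 1 to 3, against 50.4, 53.7 and 49.6 CPM in control libraries 1 to 3. No overlap was seen, and library 2 was highest in both groups. The log2 fold change was -0.38 with a standard error of 0.09. IRF9 was not called without control replicate 2, where the log2 fold change was -0.34, and without shikonin replicate 3 it was -0.29.

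A gene model named AL136295.5 runs on the same strand from RNF31 into IRF9, so reads could be split between both. This read-through model had 67, 49 and 69 counts in shikonin libraries 1 to 3, against 237, 70 and 187 counts in control libraries 1 to 3. Its control library 2 stood near the shikonin libraries although the groups did not overlap, and the log2 fold change was -1.42 with a standard error of 0.33 (edgeR's adjusted p = 0.00726). It was not called without control replicate 1, at -1.04 (edgeR's adjusted p = 0.0580). Summed over both models, the level was 41.0, 47.4 and 39.4 CPM in shikonin libraries 1 to 3, against 62.7, 57.2 and 58.9 CPM in control libraries 1 to 3. The log2 ratio of the mean sums was -0.48, beside -0.37 for the mean levels of IRF9 alone, so the direction was the same with and without these reads. The sum was taken after the values of both had been seen. RNF31 itself, 574 bases before IRF9, stood at -0.07 (edgeR's adjusted p = 0.652), and REC8 on the other side at -0.40 with 53 to 90.0 counts (edgeR's adjusted p = 0.253).

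IRF1 stood apart from the other 8 genes. This factor, which acts on antigen presentation genes, lies on the minus strand of chromosome 5 at 132440440 to 132508719. Its level was 54.7, 60.6 and 54.6 CPM in shikonin libraries 1 to 3, against 57.8, 59.1 and 50.3 CPM in control libraries 1 to 3. The groups overlapped, with the highest library in the shikonin group and the lowest in the control group. The means were 56.6 ± 3.44 CPM in the shikonin group and 55.7 ± 4.74 CPM in the control group (SD, n = 3 each), a log2 fold change of 0.02 with a standard error of 0.08. The sign was negative in 3 of 17 alternatives, at -0.04 with library totals as the only scaling, -0.05 without control replicate 3 and -0.03 without shikonin replicate 2, so no direction is given for IRF1. A model on the other strand, ENSG00000283782, spans IRF1 and had 157 to 320 counts (log2 fold change 0.19, edgeR's adjusted p = 0.565). The flanking genes SLC22A5, at -0.02, and RAD50, at -0.06, did not pass the test (edgeR's adjusted p = 0.900 and 0.730).

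The start sites of the genes were searched for the motifs of the factors they encode, since several members are known interferon targets. Promoters of 250 bases before and 50 bases after the start came from RefSeq (GRCh38.p14), with entries for 7 of the 9 genes. IFNAR2 and IRF7 had none. The palindromic STAT motif TTCNNNGAA (a gamma-activated site, the same on both strands) was found in the promoters of IRF1 and IRF9 and in 7.66% of 35116 RefSeq promoters of this length. An interferon-stimulated response element, taken as GAAA and a further GAAA after any 2 bases and searched on both strands, was found in none of the 7 and in 3.57% of all. The motifs do not overlap within the promoters shown. The 29 bases around each match are printed 5′ to 3′ on the strand of the gene, with the motif in capitals, because these genes share the motif and differ in their values. The IRF1 window is chr5:132490879-132490907 on the minus strand, from -134 to -106 relative to the start, and the IRF9 window is chr14:24161192-24161220 on the plus strand, from -73 to -45.
IRF1: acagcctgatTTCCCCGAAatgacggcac
IRF9: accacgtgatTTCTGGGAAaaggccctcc
The match lies at -124 to -116 in IRF1 and at -63 to -55 in IRF9. It overlaps no annotated exon of the gene itself, and exons of other genes were not checked. IRF9 was lower in the shikonin group at a log2 fold change of -0.38 and IRF1 stood at 0.02. The part of the motif in these values was not tested.

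The 3 IRF genes had different fold changes, and their ratios within a library give this without regard to scaling. IRF7 counts divided by IRF1 counts were 0.616, 0.544 and 0.343 in shikonin libraries 1 to 3, against 1.24, 0.864 and 1.32 in control libraries 1 to 3. The ratio of IRF7 to IRF9 was 0.890, 0.737 and 0.519 in shikonin libraries 1 to 3, against 1.42, 0.951 and 1.34 in control libraries 1 to 3. Both ratios were lower in every shikonin library than in any control library. The ratio of IRF1 to IRF9 was 1.35 to 1.52 in the shikonin group and 1.02 to 1.15 in the control group, likewise with no overlap but in the opposite direction. The ratios are not tested, as they come from the values that chose the genes.

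**Figure D2:**
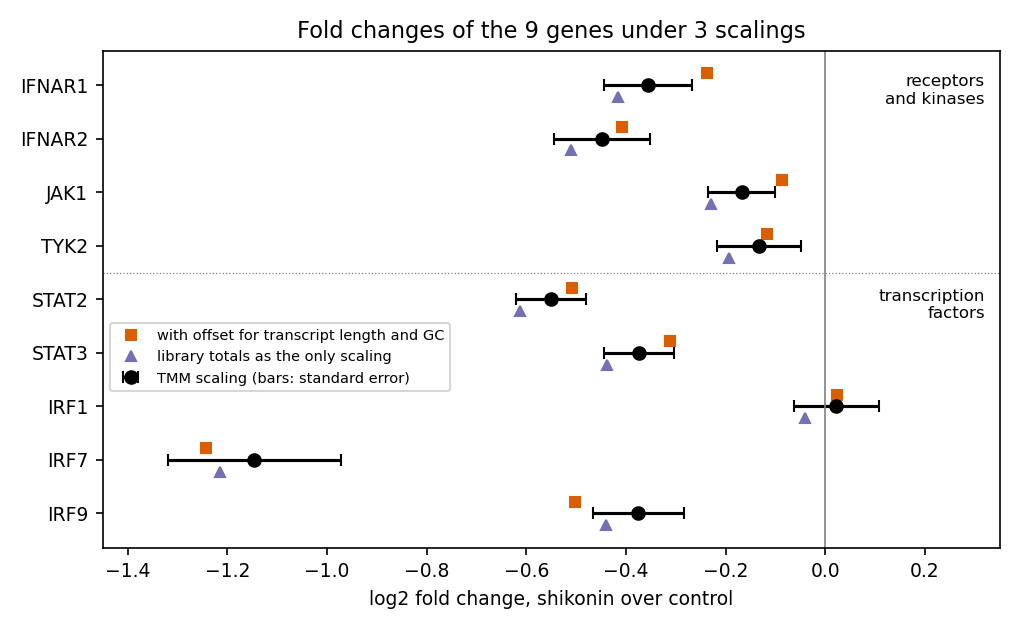
Log2 fold change, shikonin over control, of the 9 genes (horizontal axis) under 3 scalings, with receptors and kinases above the dotted line and transcription factors below it. Black circles use TMM scaling and their bars are standard errors, squares add an offset fitted to transcript length and GC, and triangles use library totals only. IRF7 lies furthest left at -1.15, and IRF1 lies within 0.05 of 0 under all 3 scalings.

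Between the classes, 4 of the 5 transcription factor genes and 2 of the 4 receptor and kinase genes were called lower, beside 11.1% of all tested genes. The median log2 fold change was -0.38 for the transcription factors and -0.26 for the receptors and kinases. Without shikonin replicate 3 the medians were -0.31 for the factors and -0.30 for the receptors and kinases. With TMM scaling and no length and GC offset, nearly all of the gap between the classes thus rests on that library. No library was left out of the fits with that offset. Within single libraries the order was less stable. Relative to the control mean, the median log2 level of the factors minus that of the receptors and kinases was -0.12 in shikonin library 1, 0.01 in shikonin library 2 and -0.35 in shikonin library 3. In the control libraries the same difference was -0.01, 0.01 and -0.02. The difference averaged -0.15 ± 0.184 in the shikonin group and -0.00 ± 0.0133 in the control group (SD, n = 3 each), and shikonin library 2 lay just above the control libraries while the others lay below them. The summed level of the factors was 365 to 406 CPM in the shikonin group and 513 to 530 CPM in the control group, and that of the receptors and kinases 321 to 351 CPM in the shikonin group and 383 to 393 CPM in the control group.

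Fold changes moved with transcript length over all genes, and the classes differ in length. When the tested genes were cut into 5 length classes of near equal size, the shortest class, up to 1717 bases, had a median of 0.14 and held IRF9 with 1626 bases. The median was 0.05 in the next class, which held IRF7, and -0.01 in the middle class, which held IRF1. The class of IFNAR2, JAK1, TYK2, STAT2 and STAT3 had a median of -0.07, and the longest class, with IFNAR1 at 6075 bases, had -0.13. With an offset for length and GC content, the medians were -0.50 for the factors and -0.18 for the receptors and kinases. The offset brought IFNAR1 to -0.24 and JAK1 to -0.09, and it brought IRF9 to -0.50 and IRF7 to -1.24. The part of transcript length in the difference between the classes was not tested further.

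Per kilobase of transcript, which allows genes to be compared, STAT3 and JAK1 were the most abundant of the 9. STAT3 was at 41.8 ± 1.86 CPM per kilobase in the shikonin group and 54.1 ± 1.23 in the control group (SD, n = 3 each). JAK1 was at 41.1 ± 1.36 CPM per kilobase in the shikonin group and 46.2 ± 0.724 in the control group (SD, n = 3 each). STAT3 and JAK1 overlapped in the shikonin group, whereas STAT3 lay above JAK1 in every control library.

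The places of IRF7, IRF1 and STAT2 in this order differed between the groups. IRF7 was at 14.8 ± 4.40 CPM per kilobase in the shikonin group and 32.7 ± 5.53 in the control group, and IRF9 at 24.3 ± 2.84 in the shikonin group and 31.5 ± 1.33 in the control group (SD, n = 3 each). In the shikonin group IRF7 lay below IRF9, and its range of 9.73 to 17.5 CPM per kilobase took in those of IRF1 (15.4 to 17.0) and STAT2 (13.0 to 13.7). In the control group the ranges of IRF7 and IRF9 overlapped. STAT2 lay below IRF1 in the shikonin group, at 13.3 ± 0.357 CPM per kilobase against 15.9 ± 0.967, and above it in the control group, at 19.5 ± 0.192 against 15.7 ± 1.33 (SD, n = 3 each). The ranges of TYK2 and IFNAR1 overlapped in both groups. Within every shikonin library TYK2 lay above IFNAR1, whereas their order differed among the control libraries. IFNAR2 was the lowest in both groups, at 5.45 ± 0.425 CPM per kilobase in the shikonin group and 7.44 ± 0.258 in the control group (SD, n = 3 each).

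**Figure D3:**
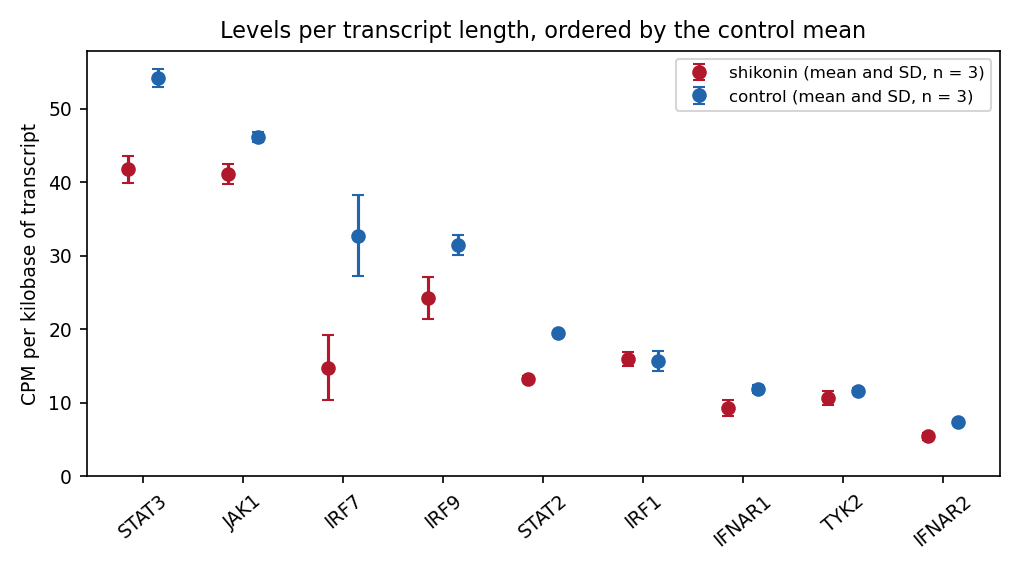
Level of the 9 genes in CPM per kilobase of transcript (vertical axis), ordered by the control mean, in the shikonin and control groups. Points are means and bars are SD (n = 3 each). IRF7 averages 14.8 in the shikonin group, next to IRF1 and STAT2, and 32.7 in the control group, next to IRF9.

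The genes most like each member across the 6 libraries were found by the Euclidean distance between their log2 levels, each centred on its mean, searched over 11824 genes that averaged 50 counts or more. IRF7 had no close match. Its nearest genes were IFI6 at 0.313, TUBA1A at 0.485 and TUBB3 at 0.547, where a smaller value is more alike. For the other 8 genes the nearest gene lay at 0.0337 to 0.0906. They were TMEM30A, KNTC1 and TET2 for IFNAR1, PHLPP2, WDFY3 and PGM2 for IFNAR2, SIPA1L2, USP40 and C17orf75 for JAK1, and CD47, SLC30A7 and SFXN1 for TYK2. Among the factors they were SRD5A1, ERCC6 and ARMC9 for STAT2, FUT10, TMEM8A and ADGRB2 for STAT3, ATG7, MMS19 and GOT1 for IRF1, and PMP22, RET and CASP2 for IRF9. The closest pair of members was STAT2 and IFNAR2 at a distance of 0.171, followed by JAK1 and TYK2 at 0.192 and by STAT3 and IRF9 at 0.202. Even so, IFNAR2 was only number 60 among the genes nearest to STAT2.

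IFI6, an interferon-stimulated gene and the nearest gene to IRF7, was at 86.4, 77.2 and 52.2 CPM in shikonin libraries 1 to 3, against 212, 151 and 164 CPM in control libraries 1 to 3. As for IRF7, shikonin library 3 was the lowest of all and control library 2 the lowest of its group. IFI6 was picked for its closeness to IRF7 in these same libraries. Its likeness to IRF7 in pattern and fold change therefore follows from the choice, and nothing is read from it. The log2 fold change of IFI6 was -1.29 (edgeR's adjusted p = 6.95e-05).

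Other genes of the pathway were taken from 11 lists, of which 138 genes were in the table and 110 were tested. Of these, 41 were called lower, 4 higher and 65 were not called, beside 11.1% of all tested genes called lower and 10.8% called higher. In place of these 4 higher, 2 were called when control replicate 1 or either of shikonin replicates 1 and 2 was left out, and 8 when shikonin replicate 3 was. None of the 4 other chains of interferon receptors was called, beside 21.9% of all tested genes called in either direction. IFNGR1 and IFNLR1 both stood at a log2 fold change of 0.02, IL10RB at -0.04 and IFNGR2 at 0.19. The median of these receptor chains was 0.02, beside -0.02 over all tested genes.

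Of the other Janus kinases and STATs, 1 of each was called lower, beside 11.1% of all tested genes. JAK2, the kinase of many cytokine receptors, fell to 7.86 ± 0.848 CPM in the shikonin group, against 11.8 ± 1.46 CPM in the control group (SD, n = 3 each; log2 fold change -0.59 ± 0.15 SE, edgeR's adjusted p = 0.0115). It was not called without control replicate 2 (edgeR's adjusted p = 0.0655). STAT4, which in lymphocytes answers to interleukin-12, fell at a low level to 2.55 ± 0.234 CPM in the shikonin group, against 4.86 ± 0.653 CPM in the control group (SD, n = 3 each; log2 fold change -0.93 ± 0.22 SE, edgeR's adjusted p = 0.00871). JAK3, at -0.28, STAT5B, at 0.00, and STAT6, at -0.10, were not called (edgeR's adjusted p = 0.0959, 0.992 and 0.410).

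IRF2, IRF3 and IRF5 were not called by edgeR with TMM scaling, the filter on low counts and all libraries. IRF3, which acts with IRF7 on interferon genes but is not itself induced by them, stood at 0.21 (edgeR's adjusted p = 0.0510), and its 3 shikonin libraries lay above the control libraries. IRF3 was near the threshold. It was called higher in 4 of 17 alternatives, at 0.22 to 0.23, namely DESeq2 (adjusted p = 0.0347), median-of-ratios scaling and a mean count of at least 50 (edgeR's adjusted p = 0.0411 and 0.0442), and the fit without shikonin replicate 3 (edgeR's adjusted p = 0.0260). With the length and GC offset it stood at 0.08 (edgeR's adjusted p = 0.406). IRF2 stood at -0.16 and IRF5 at -0.06 (edgeR's adjusted p = 0.281 and 0.707). IRF4 had under 10 counts in every library and IRF8 was listed at 0. The interferon genes themselves were scarcely detected, as 9 of 10 had under 10 counts in every library and 3 were listed at 0. IFNE, the epithelial interferon epsilon gene, was called lower at no more than 30 counts in a library (log2 fold change -1.81, standard error 0.51, edgeR's adjusted p = 0.0210). Its call was lost without control replicate 1 or 3 (edgeR's adjusted p = 0.0562 and 0.111) and without shikonin replicate 1 or 2 (edgeR's adjusted p = 0.0722 and 0.0900).

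Of 20 genes listed as negative regulators of JAK-STAT signalling, 3 were called lower, beside 11.1% of all tested genes, and 17 were not called. Among the 17 were IRF2BP1, IRF2BP2 and IRF2BPL (edgeR's adjusted p = 0.994, 0.364 and 0.372). These belong to the IRF2-binding protein family rather than to the regulators of JAK-STAT signalling. The median of all 20 was -0.08. Without shikonin replicate 3, 5 were called lower, and without any 1 of the control libraries 2 were. PTPN6, a phosphatase that acts on Janus kinases, fell to 38.8 ± 4.16 CPM in the shikonin group, against 50.4 ± 1.20 CPM in the control group (SD, n = 3 each; log2 fold change -0.38, edgeR's adjusted p = 0.00769), a call that held in all 17 alternatives. USP18, which displaces JAK1 from IFNAR2 and is itself induced by interferon, was called lower at a log2 fold change of -0.42 (edgeR's adjusted p = 0.0169), but not without control replicate 1 (edgeR's adjusted p = 0.0653). SOCS7 was called lower at -0.32 (edgeR's adjusted p = 0.0203), but not without control replicate 2 or 3 (edgeR's adjusted p = 0.0595 and 0.0743), nor with the length and GC offset (edgeR's adjusted p = 0.0669). The feedback inhibitors SOCS1, at 0.02, and SOCS3, at -0.18, were not called (edgeR's adjusted p = 0.952 and 0.170).

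Upstream of IRF3 and IRF7, 13 genes of sensors, adaptors and kinases were tested, of which 3 were called lower, 1 higher and 9 were not called. The shares over all tested genes were 11.1% lower and 10.8% higher. Both cytoplasmic RNA sensors with a signalling domain fell. DDX58, which encodes RIG-I, was at 24.7 ± 5.19 CPM in the shikonin group and 50.9 ± 5.17 CPM in the control group (SD, n = 3 each; log2 fold change -1.04, edgeR's adjusted p = 9.36e-05). IFIH1, which encodes MDA5, was at 21.7 ± 2.04 CPM in the shikonin group and 38.7 ± 6.30 CPM in the control group (SD, n = 3 each; log2 fold change -0.83, edgeR's adjusted p = 0.000276). Both are interferon-stimulated genes as well. The adaptor gene MYD88 was called lower at -0.38 (edgeR's adjusted p = 0.0122), but not without control replicate 1 or 2 (edgeR's adjusted p = 0.0725 and 0.0608). The kinase gene IRAK1 was called higher at 0.29 (edgeR's adjusted p = 0.0197), but not without control replicate 1 or 2 (edgeR's adjusted p = 0.0979 and 0.0765) or shikonin replicate 1 or 2 (edgeR's adjusted p = 0.105 and 0.0684).

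On the STAT3 side, 2 of 7 tested genes in the list of gp130 family receptors were called lower, beside 11.1% of all tested genes. The list also holds IL22RA1, which is not of that family and was not called (log2 fold change -0.53, edgeR's adjusted p = 0.128). IL11RA, the receptor for interleukin-11, fell to 4.32 ± 0.388 CPM in the shikonin group, against 8.13 ± 0.717 CPM in the control group (SD, n = 3 each; log2 fold change -0.91, edgeR's adjusted p = 0.00216). IL6ST, which encodes gp130 itself, was called lower at -0.35 (edgeR's adjusted p = 0.0160), but not without control replicate 1 or 2 (edgeR's adjusted p = 0.0707 and 0.0770) or shikonin replicate 1 or 2 (edgeR's adjusted p = 0.0777 and 0.0746). The 12 tested target genes of STAT3 did not move one way, as 3 were called lower, 2 higher and 7 were not called, with a median of -0.02. Without shikonin replicate 3, 4 were called higher and 2 lower. With all libraries, 11.1% of all tested genes were called lower and 10.8% higher. The transcription factor gene JUNB fell to 412 ± 17.2 CPM in the shikonin group, against 555 ± 13.1 CPM in the control group (SD, n = 3 each; log2 fold change -0.43, edgeR's adjusted p = 0.00105), and the survival gene MCL1 had a log2 fold change of -0.32 (edgeR's adjusted p = 0.00523).

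Other STAT3 targets rose. CEBPD, a transcription factor of the acute phase response, rose to 33.6 ± 4.81 CPM in the shikonin group, against 22.4 ± 1.86 CPM in the control group (SD, n = 3 each; log2 fold change 0.59, edgeR's adjusted p = 0.00240), and the survival gene BCL2L1 had a log2 fold change of 0.38 (edgeR's adjusted p = 0.00519). The cyclin gene CCND1 was called lower at -0.28 (edgeR's adjusted p = 0.0318), but not without control replicate 1 or 3 (edgeR's adjusted p = 0.168 and 0.0811) or shikonin replicate 1 or 3 (edgeR's adjusted p = 0.12 and 0.0515), nor with a replicate block (edgeR's adjusted p = 0.0717).

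Of 34 tested interferon-stimulated genes, the targets of ISGF3, 23 were called lower, none higher and 11 were not called. Over all tested genes 11.1% were called lower. Of the 34 genes, 32 had a log2 fold change below 0. Their median was -0.73, beside -0.02 over all tested genes, and 19 to 25 were called lower when 1 library was left out. The most significant was HELZ2, a helicase gene, which fell to 173 ± 9.20 CPM in the shikonin group, against 329 ± 17.6 CPM in the control group (SD, n = 3 each; log2 fold change -0.93, edgeR's adjusted p = 3.46e-06). DTX3L, a ubiquitin ligase gene, had a log2 fold change of -0.78 (edgeR's adjusted p = 1.64e-05), and DDX60, a helicase gene of the RNA sensing pathway, of -1.16 (edgeR's adjusted p = 3.16e-05). OAS3, which makes an activator of RNase L, had a log2 fold change of -1.10 (edgeR's adjusted p = 2.88e-05).

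The list of IRF1 and interferon gamma targets was called in part. Of 11 tested genes, 4 were called lower, 1 higher and 6 were not called, with a median of -0.36. Over all tested genes 11.1% were called lower and 10.8% higher. TAP1, the peptide transporter of antigen presentation, fell to 8.58 ± 2.39 CPM in the shikonin group, against 24.0 ± 2.33 CPM in the control group (SD, n = 3 each; log2 fold change -1.48, edgeR's adjusted p = 5.7e-05). Its partner TAPBP fell with a log2 fold change of -0.60 (edgeR's adjusted p = 0.000401), and NLRC5, the activator of MHC class I genes, with -0.63 (edgeR's adjusted p = 0.00165). B2M, the MHC class I light chain, was called lower at -0.31 (edgeR's adjusted p = 0.0154), but not without control replicate 1 or 2 (edgeR's adjusted p = 0.105 and 0.0534) or shikonin replicate 1 or 2 (edgeR's adjusted p = 0.0798 and 0.0507). WARS, a transfer RNA synthetase gene, was called higher at 0.28 (edgeR's adjusted p = 0.0151), but not without control replicate 1 or 3 (edgeR's adjusted p = 0.0848 and 0.0611) or without shikonin replicate 2 (edgeR's adjusted p = 0.0638) or 1 (edgeR's adjusted p = 0.0512).

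**Figure D4:**
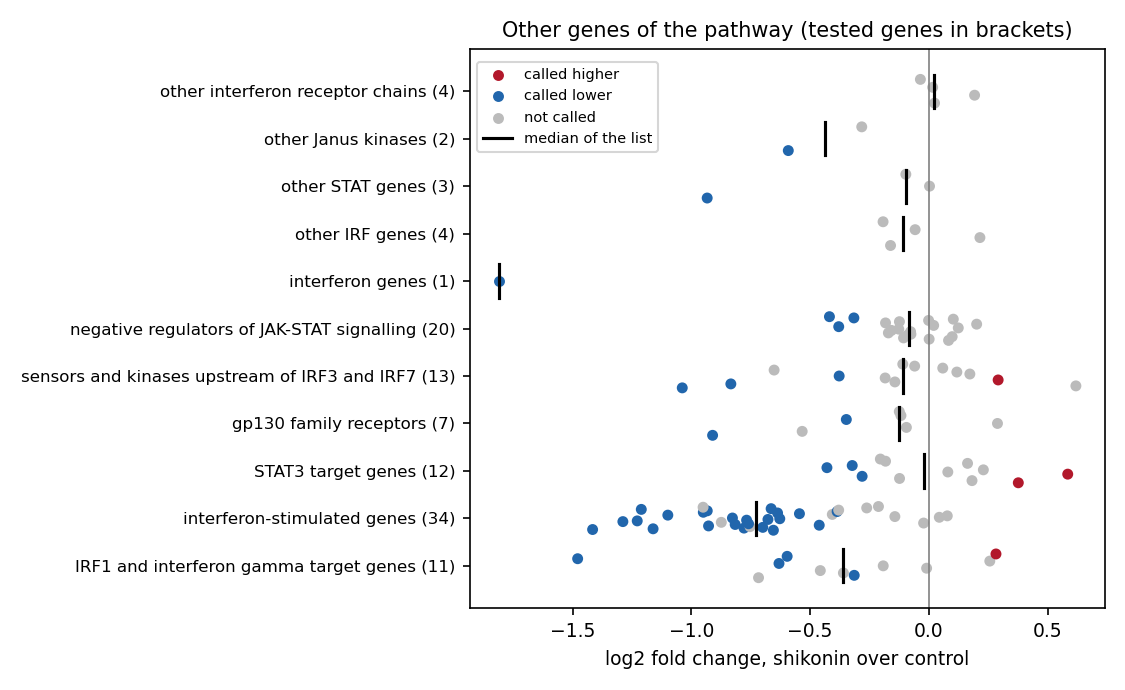
Log2 fold change, shikonin over control, of the tested genes (points) in 11 lists of other pathway genes, with the number of tested genes in brackets. Blue points were called lower, red points higher and grey points were not called, and black bars are list medians. The interferon-stimulated genes have a median of -0.73, whereas the other interferon receptor chains have a median of 0.02.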

How the data were processed

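Messenger RNA was sequenced from 3 shikonin and 3 control libraries of HCT116 cells. The authors deposited estimated counts per gene, unscaled, and per library 46.5% to 63.3% of nonzero values had decimals. The study's methods name TopHat2, featureCounts and hg38, but GRCm38 and mm10, both mouse builds, stand in the submitters' processing notes, and the gene identifiers are human. It is not said which tool wrote the deposited values. The design had left the unit open, so counts were rounded to whole numbers. All columns matched a sample.

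Analysis used R 4.3.3 and edgeR 4.0.16 (filterByExpr, TMM, glmQLFit and glmQLFTest, Benjamini-Hochberg adjustment over 13548 genes, called under 0.05). A standard error is the size of the log2 fold change over the root of its F statistic. CPM used TMM-scaled library sizes, and the distances between genes used log2 CPM with a prior count of 2. GENCODE release 44 matched 34979 of 35106 identifiers and gave coordinates and the length of 1 canonical transcript a gene.

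The members and lists were chosen with earlier results of these data known. Named are the 9 genes, in each list every called gene or, where more than 4 were called, the 4 with the smallest p, the 3 nearest genes of each member, and its neighbouring and overlapping genes. Also named, after their values were seen, are the receptor chains, kinases, STATs and IRFs that were not called. So are SOCS1, SOCS3, IL22RA1, IRF2BP1, IRF2BP2, IRF2BPL and CDH1, likewise not called. IFI6 beyond its distance, and CCND1 and B2M, the fifth by p in their lists, were also named after their values were seen. Lists were compiled by hand, and SOCS3 is in both the negative regulators and the STAT3 targets.

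Alternatives were median-of-ratios scaling, library totals, DESeq2 1.42.0, limma-voom in limma 3.58.1, no filter, a mean count of at least 50, unrounded counts, a replicate block in edgeR and DESeq2, a length and GC offset (spline, 5 degrees of freedom) with and without the block, and leaving out each library. Only the edgeR fit with TMM scaling, the filter on low counts and no block was tested on simulated data, and the alternatives were not. Fibroblast and endothelial markers were also summed: 26.9 to 35.7 CPM in the shikonin group and 31.1 to 35.1 in the control group for fibroblast genes, nearly all COL1A1 with DCN and LUM at 0, and 0.794 to 1.58 CPM in the shikonin group and 1.37 to 1.92 in the control group for endothelial genes, with CDH5 at 0.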

Additional observations from a re-analysis of the deposited data

How the results depend on the processing

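The log2 fold changes of 8 of the 9 genes were below 0 in all 17 alternatives, with ranges of -0.43 to -0.24 for IFNAR1, -0.51 to -0.40 for IFNAR2, -0.23 to -0.09 for JAK1, -0.19 to -0.08 for TYK2, -0.61 to -0.51 for STAT2, -0.44 to -0.31 for STAT3, -1.29 to -0.89 for IRF7 and -0.51 to -0.29 for IRF9. IRF1 ranged from -0.05 to 0.07. The number of members called was 6 in 10 of the 11 alternatives that kept all libraries and 7 with library totals alone, and leaving out 1 library gave 5 to 7. Library totals gave 1033 genes called higher and 2150 lower, beside 1460 and 1504 with TMM, a median over all genes of -0.08, and a median of -0.44 for the transcription factors. With the length and GC offset the medians were -0.50 for the factors and -0.18 for the receptors and kinases, and with the replicate block and the offset -0.51 and -0.18.

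Leaving out 1 library gave 1637 to 3975 called genes, 861 to 2074 of them higher and 776 to 1901 lower, with the lowest number without control replicate 1 and the highest without shikonin replicate 3. It gave medians of -0.47 to -0.31 for the factors and -0.30 to -0.23 for the receptors and kinases, and 31 to 40 other pathway genes called lower and 2 to 8 higher. The gap between the class medians was nearly gone without shikonin replicate 3, at -0.31 and -0.30, in a fit without the length and GC offset. The cause of these shifts was not tested, and with 3 libraries a group small differences such as that of JAK1 are at the limit of what can be called.

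No pairing by replicate number was seen, since the deviations of same-numbered shikonin and control libraries correlated at 0.0027, 0.013 and 0.037. No library correlated best with its own number. Such correlations cannot exclude that same-numbered libraries were paired. With a replicate block, edgeR called 1186 genes higher and 1166 lower, 2352 in all, and 6 of the 9 members. With the replicate block in DESeq2, 1807 genes were called, 776 of them lower, with 33 other pathway genes called lower in place of 41. Lost there were JAK2, STAT4, SOCS7, USP18, IFIT3 and BST2 (adjusted p = 0.0504, 0.0532, 0.0631, 0.113, 0.0960 and 0.151 in DESeq2), while IFNE and CMPK2 had no adjusted p. In edgeR the replicate block ended the calls of CCND1, BST2 and KRT19 (adjusted p = 0.0717, 0.0698 and 0.0982), and with the offset as well those of CCND1, SOCS7, IL6ST and KRT19 (adjusted p = 0.0762, 0.0929, 0.0637 and 0.351).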
